A study of Mus musculus with 12 samples.

Results

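The genes described here encode the proteins of the respiratory chain and ATP synthase, in NE-4C mouse neural progenitor cells with and without Faf2. They are the 104 of 57010 genes in the deposited table whose symbols match name patterns for subunits of complexes I to V. Of these, 13 are on mitochondrial DNA and 91 in the nucleus. NE-4C cells are a line cloned from embryonic day 9 brain of mice lacking functional p53, so every group shares that loss. WT cells and Faf2 KO cells were harvested untreated (the NO groups) or after retinoic acid (the RA groups). The KO cells were from 1 line in which CRISPR/Cas9 deleted exon 4 of Faf2. RA groups had 24 h in 1 µM all-trans retinoic acid and were harvested on day 3 after induction. Each group had 3 bulk polyA-selected RNA-Seq libraries from independent passages. The KO is 1 line, so the deletion and any other difference of that line cannot be told apart. The paper gives no time in culture for the untreated groups, so RA and any difference in days of culture cannot be told apart.

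Complexes I to IV pass electrons from NADH and succinate to oxygen. Complexes I, III and IV pump protons across the inner mitochondrial membrane, and complex V uses the proton gradient to make ATP. These 4 complexes are built from subunits of both genomes, while the subunits of complex II, the succinate dehydrogenase of the citric acid cycle, are all nuclear. Mitochondrial DNA is transcribed as long precursors that are cut at tRNAs, so its mRNA levels are set largely by processing and decay. Neural progenitors lean on glycolysis and shift towards oxidative phosphorylation as they become neurons.

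By complex, the set held 40 nuclear and 7 mitochondrial genes of complex I, 4 nuclear genes of complex II, 8 and 1 of complex III, 21 and 3 of complex IV, and 18 and 2 of complex V (Ndufa4 and Ndufa4l2, first described in complex I, are counted with complex IV). After the filter on low counts, 85 nuclear and all 13 mitochondrial genes were tested among 16502 genes. The 6 that did not pass were Cox4i2, Cox8b, Cox8c, Ndufa11b, Ndufb11b and a second identifier of Atp5o. Ndufa11b, Ndufb4c, Ndufs6b and Cox6c2 are annotated as processed pseudogenes, and reads shared with their parent genes may be split between copies. The same limit holds for mitochondrial genes and their nuclear copies.

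Some mitochondrial genes share bases on the circular genome, and reads from shared bases cannot be given to 1 gene with certainty. The overlaps are shown because they bear on the levels of mt-Atp8, mt-Nd4l and mt-Nd6 given here. All positions are on chromosome M of GRCm39, read on the forward strand, with the shared bases in capitals and 10 bases on each side.
mt-Atp8 and mt-Atp6, chrM:7917-7979: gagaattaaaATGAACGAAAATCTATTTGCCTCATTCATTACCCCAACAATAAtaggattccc
mt-Nd4l and mt-Nd4, chrM:10157-10183: acctactacaATGCTAAaaattattct
mt-Nd5 and mt-Nd6, chrM:13542-13575: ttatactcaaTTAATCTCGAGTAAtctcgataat
The mt-Atp8 and mt-Atp6 reading frames share 43 bases, which begin with the start codon of mt-Atp6. The mt-Nd4l and mt-Nd4 frames share 7 bases. mt-Nd5 and mt-Nd6 lie on opposite strands and share 14 bases, and mt-Atp6 and mt-Co3 share 1.

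Libraries held 17370069 to 30738717 counts. Faf2 itself was at 36.0 to 50.0 CPM (CPM scales the count of a gene to the library total after the TMM correction for composition, edgeR's default) in WT NO and 21.0 to 25.4 in KO NO, but at 35.1 to 49.1 in WT RA and 36.1, 34.3 and 18.7 in KO RA. A whole-gene count does not show whether exon 4 is present, so these levels do not check the KO labels. The 8 neural progenitor markers were above the floor of 3 counts in every group, with summed levels of 379 to 967 CPM. Vim alone was at 102 to 639 CPM, and single markers went different ways. Pax6 was at 4.12 to 9.30 CPM in WT NO and 0.791 to 2.01 in KO NO, while Sox2 was at 23.7 to 44.3 and 57.7 to 63.5. The pluripotency marker Pou5f1 was at 800.0 to 2775 CPM in the same libraries, a level above that of the summed neural progenitor markers in 11 of 12 libraries, and its partner Nanog was at 43.6 to 173 CPM. The third marker of the list, Zfp42, was at 0 in 10 libraries and at 0.0991 CPM at most. In bulk RNA, fewer cells of a type and less RNA per cell cannot be told apart.

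The third KO RA library stood apart. Its 100 most abundant genes took 62.5% of counts, against 37.1% to 50.4% in the other libraries, ribosomal protein genes took 24.5% and mitochondrial genes 23.5%. Its TMM factor was 0.394, so a level in CPM there is well above the share of counts it comes from. Summed mesenchymal markers were at 1026 CPM at most in KO RA, in this library, against 167 and 288 in the other pair. Of these, Tagln was at 763 CPM and Acta2 at 210 in this library, each above the other KO RA libraries. Col1a2, Pdgfra, Pdgfrb and Twist1 were lower there than in either other KO RA library, and Col1a1 lay between them. Every comparison is therefore given with all 12 libraries and again without this one, which leaves KO RA with 2 libraries.

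Messages of the 13 mitochondrial genes took 10.4% to 13.3% of all counts in WT NO and 8.89% to 11.7% in KO NO. After RA they took 13.2% to 17.6% in WT and 12.6%, 12.3% and 23.2% in KO. The 91 nuclear genes together took 1.91% to 2.11% in WT NO and 1.98% to 2.20% in KO NO. Their shares were 1.73% to 1.87% in WT RA, and 1.64%, 1.68% and 2.72% after RA in KO. The 2 untreated groups overlapped in the share from the mitochondrial genome, which was highest in the third KO RA library.

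The ratio of summed mitochondrial to summed nuclear levels, which does not depend on how libraries are scaled, was 6.97, 5.25 and 4.94 in WT NO and 8.29, 7.07 and 10.1 in WT RA. It was 4.04, 5.48 and 5.70 in KO NO and 7.67, 7.35 and 8.52 in KO RA. In both genotypes every RA library lay above every untreated library, and this held with the third KO RA library, whose ratio was close to those of its group. The means were 5.72 ± 1.10 (SD, n = 3) and 8.50 ± 1.55 for WT NO and WT RA, and 5.07 ± 0.90 and 7.85 ± 0.60 for KO NO and KO RA. WT and KO overlapped under either treatment. These ratios are a description without a test.

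The ratio differed most for complex V, where the short gene mt-Atp8 made up 42432 of the mean mitochondrial sum of 63406 CPM in WT RA. The mean ratio for complex V went from 5.05 ± 1.40 to 9.99 ± 2.03 (SD, n = 3) in WT and from 5.59 ± 1.39 to 10.6 ± 1.80 in KO. For complex IV the means were 7.76 and 10.8 in WT NO and WT RA, and 5.80 and 8.40 in KO NO and KO RA. For complex III they were 3.90 ± 0.64 and 4.97 ± 1.26 in WT, where the groups overlapped, and 3.78 and 4.89 in KO. For complex I they were 6.12 ± 1.15 and 6.78 ± 1.46 in WT, a difference smaller than the spread within the groups, and 4.70 and 6.36 in KO.

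**Figure D1:**
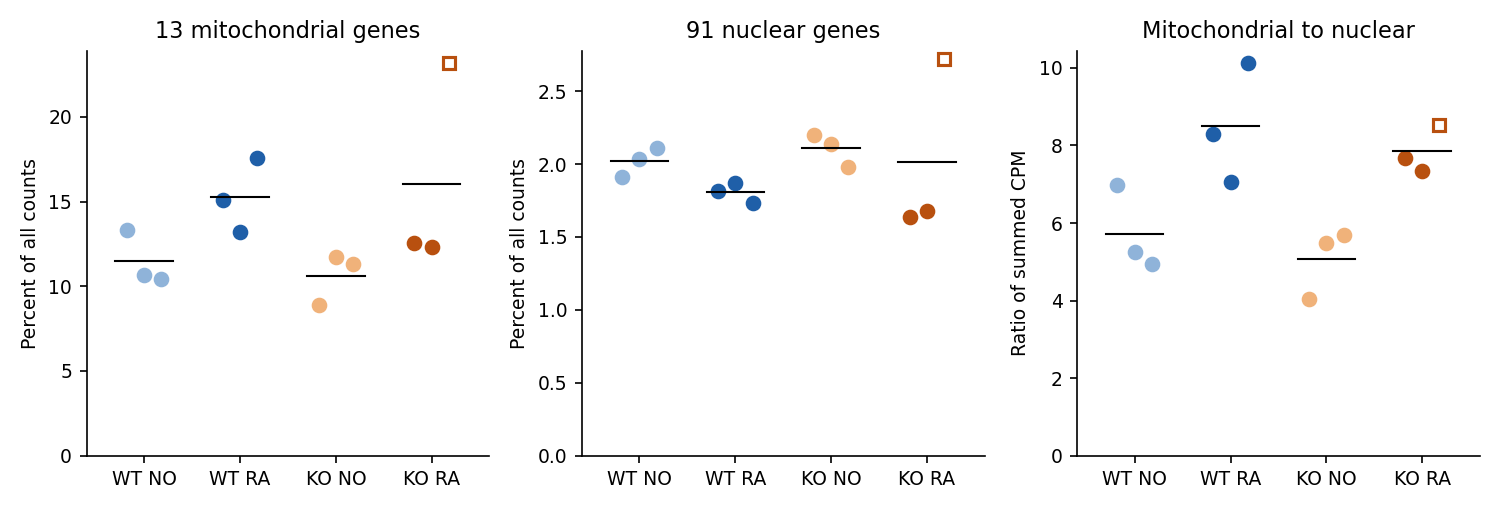
Share of counts (percent) from the 13 mitochondrial genes and from the 91 nuclear genes, and the ratio of their summed levels, for each of 12 libraries in 4 groups; horizontal bars are group means and the open square is the third KO RA library. The ratio is above all untreated values in the 6 RA libraries, including the open square, although both shares of the open square are far above its group.

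Among the mitochondrial messages the order was nearly fixed. The deposited counts are corrected for transcript length, so the order and shares are of levels per length. mt-Atp8 has only 204 bases, and the part of the length correction in its level was not tested. mt-Atp8, a short subunit of the ATP synthase proton channel, and mt-Co1, the catalytic subunit of cytochrome c oxidase, held the first 2 places in every library, with 17.2% to 31.0% and 16.8% to 25.7% of the summed mitochondrial level. mt-Nd4l, mt-Nd3 and mt-Nd6, all subunits of the membrane arm of complex I, were the last 3 in every library, and mt-Nd6, the only one encoded on the other strand, took 0.181% to 0.401%. mt-Atp8 and mt-Atp6 are carried on 1 message and share the bases printed above, yet their ratio ranged from 1.42 to 2.50 between libraries, with both extremes in KO NO. Counts on the mitochondrial rRNAs, as a ratio to 1000 counts on mitochondrial mRNA, were 15.5 to 19.1 in WT NO and 6.49 to 6.90 in WT RA. In KO they were 11.9 to 23.6 untreated and 7.09, 7.56 and 11.6 with RA. RA libraries were again apart from untreated libraries in both genotypes, here on the low side. Selection of polyA RNA is not designed to recover rRNA, so these are counts that passed the selection.

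The first comparison asked what loss of Faf2 did in untreated cells. In all 12 libraries 0 of 98 tested genes of the respiratory chain were called higher and 0 were called lower by edgeR's quasi-likelihood test (adjusted p under 0.05) in the KO, against 0.788% and 0.351% of all genes tested. Unadjusted p-values under 0.05 were found for 2 and 2, against 959 and 1052 of all 16502 genes. DESeq2 called 0 and 2 (3.13% and 3.02% of all genes) and limma-voom 2 and 10 (10.9% and 10.8%). The median log2 fold change was 0.02 over the nuclear genes, −0.28 over the mitochondrial genes and −0.02 over all genes tested. Without the third KO RA library, which enters this contrast only through the shared estimate of spread and the filter, 1 was called higher and 8 lower, against 4.43% and 4.35% of 17327 genes. The share called lower, 8 of 98, was above that of all genes, but the genes were few and mostly from 2 chromosomes.

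The gene called higher was Ndufa13, also known as Grim19, an accessory subunit of complex I first described as a mediator of cell death under interferon and retinoic acid. It was at 23.5, 30.3 and 29.3 CPM in WT NO and at 86.2, 83.2 and 66.8 in KO NO, so that the lowest KO library was above the highest WT library. Its log2 fold change was 1.51 ± 0.14 (SE) with an edgeR adjusted p of 0.000346, and 1.51 with an edgeR adjusted p of 0.16 in all 12 libraries. In WT cells Ndufa13 was the second lowest of the 38 tested nuclear genes of complex I, per length, above only the pseudogene Ndufs6b, and in KO NO it was 15th from the lowest. Ndufa13 (chromosome 8, 70346808 to 70355872, reverse strand) overlaps Yjefn3 on its own strand and Tssk6 on the other, and reads of the 3 may not be separable. Yjefn3 was at no more than 3.77 CPM and Tssk6 at no more than 0.511 in any library.

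The 8 genes called lower in KO NO held catalytic and accessory subunits. Uqcrfs1, the Rieske iron-sulfur protein of complex III, was at 91.6, 86.6 and 73.8 CPM in WT NO and 52.4, 60.9 and 50.5 in KO NO. The groups did not overlap, and its log2 fold change was −0.61 ± 0.12 (edgeR adjusted p = 0.0133). Cox7a2l, which joins complexes III and IV in supercomplexes, went from 178, 148 and 132 CPM to 95.3, 99.0 and 64.1, a log2 fold change of −0.81 ± 0.16 (edgeR adjusted p = 0.0149). Cox7c, a small subunit of complex IV, went from 494, 554 and 432 CPM to 345, 348 and 250 (−0.64, edgeR adjusted p = 0.0311). None of these 3 overlapped between the groups. Sdha, the catalytic flavoprotein of complex II, changed by −0.55, Ndufb10 of the complex I membrane arm by −0.66, Cox5b of complex IV by −0.52 and Ndufv2, an iron-sulfur subunit of the complex I arm that oxidises NADH, by −0.50. mt-Co3, the third core subunit of cytochrome c oxidase, was the only mitochondrial gene called, at 4259, 3341 and 4605 CPM in WT NO and 2473, 3060 and 2297 in KO NO (−0.63 ± 0.15, edgeR adjusted p = 0.0308). Of the other mitochondrial genes 10 had negative and 2 positive log2 fold changes, the 2 being mt-Atp6 and mt-Atp8.

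Of the 7 nuclear genes called lower, 6 lie on chromosome 13 or 17. Those chromosomes hold 12 of the 85 tested nuclear members: Cox7c, Ndufs4, Ndufs6, Sdha, Uqcrb and Uqcrfs1 on 13, and Cox7a2l, Ndufa7, Ndufa11, Ndufb10, Ndufv2 and Ndufv3 on 17. Over these 12 the median log2 fold change without Faf2 was −0.52, 10 were negative and 6 (50.0%) were called lower. Over the 73 members on other chromosomes the median was 0.08 and 1 (1.37%) was called lower, Cox5b on chromosome 1. All 1510 tested genes on chromosomes 13 and 17 had a median of −0.41, with 16.5% called lower, against 0.02 and 3.19% for the 15817 genes elsewhere. The lower levels of these members thus lay on chromosomes whose genes as a whole were lower in the KO line. Faf2 is on chromosome 13, and what lowered these chromosomes was not tested. After RA, also without the third KO RA library, 10 of the 12 (83.3%) were called lower in KO, with a median of −0.97, against 20 of 73 (27.4%) elsewhere, with a median of −0.47. Of all genes 17.42% on these chromosomes and 4.29% elsewhere were called lower there. With all 12 libraries 0 of the 12 were called lower after RA and their median was 0.11.

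**Figure D2:**
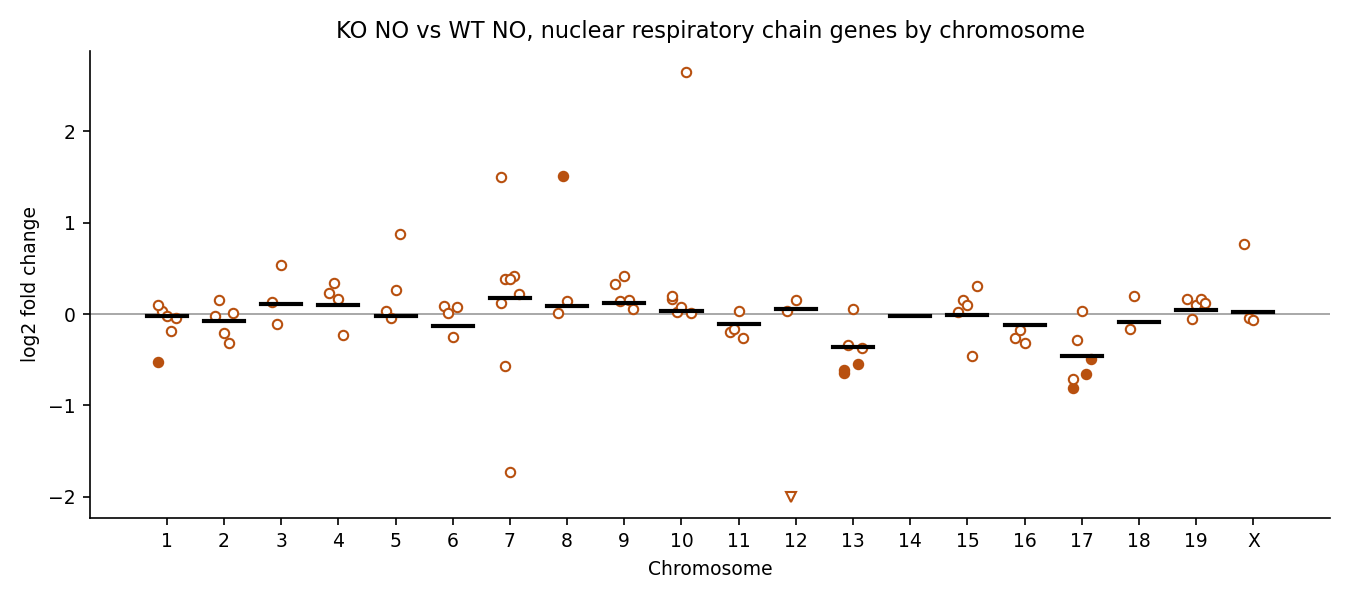
Log2 fold change between untreated KO and WT of the tested nuclear members by chromosome, without the third KO RA library; points are genes, filled where called, black bars are medians of all tested genes on each chromosome, and the triangle marks Cox6c2, below −2. Members on chromosomes 13 and 17 lie mostly below 0 along with the bars there, with medians of −0.52 for the 12 members and −0.41 for all genes.

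The second comparison set KO RA against WT RA. In all 12 libraries 0 of 98 were called higher and 0 lower by edgeR, against 0.885% and 0.358% of all genes. Unadjusted p-values were under 0.05 for 8 and 6, against 1799 and 1100 of all 16502 genes. DESeq2 called 3 and 3 (5.02% and 2.95% of all genes), and limma-voom with quality weights called 3 and 38 (9.77% and 8.36%). The median log2 fold change was 0.57 over the nuclear genes and 0.77 over the mitochondrial genes, against 0.09 over all genes. These medians rested on the third KO RA library: without it they were −0.50, −0.72 and 0.01. Then 2 genes were called higher and 34 lower, against 4.42% and 5.44% of all genes, so the share of members called lower was well above the background. On total counts in place of TMM the medians without that library were −0.07 and −0.26 while that of all genes was 0.45. There 7 were called higher and 9 lower, against 22.3% and 1.79% of all genes. Both sets lay below all genes on either scale, but a change of scale shifts all genes of a library alike and could not alter that order.

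Without the third library the genes called lower came from all 5 complexes. In complex I they were 14 nuclear genes and mt-Nd3, in complex II Sdha, in complex III 4 nuclear genes, in complex IV 6 nuclear genes with mt-Co1, mt-Co2 and mt-Co3, and in complex V 5 nuclear genes. The nuclear medians by complex lay between −0.33 for complex II and −0.61 for complex IV. All 17 tested nuclear genes of complex V had negative values. Summed mesenchymal markers were 77.1 to 238 CPM in WT RA and 167 to 1026 in KO RA, with the highest value in the third library. Their part in these differences was not tested.

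Cox7c had the smallest adjusted p. It was at 677, 550 and 630 CPM in WT RA and at 218 and 184 in the first 2 KO RA libraries, with 2178 in the third. Its log2 fold change without the third library was −1.63 ± 0.18 (edgeR adjusted p = 0.00127). Cox7a2l was at 285, 273 and 294 CPM in WT RA, at 96.1 and 94.3 in KO RA 1 and 2, and at 413 in KO RA 3 (−1.58 ± 0.19, edgeR adjusted p = 0.00179). In each of these genes the WT values were close together and KO RA 3 lay above them while KO RA 1 and 2 lay below. Uqcrfs1 was at 105, 103 and 98.8 CPM in WT RA and 47.2, 56.7 and 133 in KO RA (−0.98, edgeR adjusted p = 0.0035). Ndufs4, an accessory subunit of complex I whose loss models Leigh syndrome in mice, was at 124, 112 and 95.5 against 41.4, 38.4 and 540 (−1.47, edgeR adjusted p = 0.00345). The hinge protein Uqcrh of complex III, which docks cytochrome c, was at 821, 562 and 723 against 292, 334 and 3414 (−1.17, edgeR adjusted p = 0.00453).

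Values for core subunits were mostly negative, and not all were called. mt-Co1 was at 36263, 33391 and 45316 CPM in WT RA and 17901, 16922 and 101080 in KO RA, a log2 fold change of −1.14 ± 0.19 without the third library (edgeR adjusted p = 0.00731). The ATP synthase subunits mt-Atp6 and mt-Atp8 had values of −0.52 and −0.56 that did not pass (edgeR adjusted p of 0.144 and 0.34). Ndufs7, a core subunit near the quinone site of complex I, had −0.32 and Atp5a1, the alpha subunit of ATP synthase, −0.31, neither of them called. Uqcrc1, a core protein of complex III, had 0.30 (edgeR adjusted p = 0.0774). The 2 genes called higher were Ndufa13, at 32.2, 31.4 and 27.3 CPM in WT RA and 53.2, 55.8 and 206 in KO RA (0.84 ± 0.15, edgeR adjusted p = 0.00938), and Cox6a2. Ndufa13 was thus higher in KO under both treatments and in all 6 KO libraries.

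**Figure D3:**
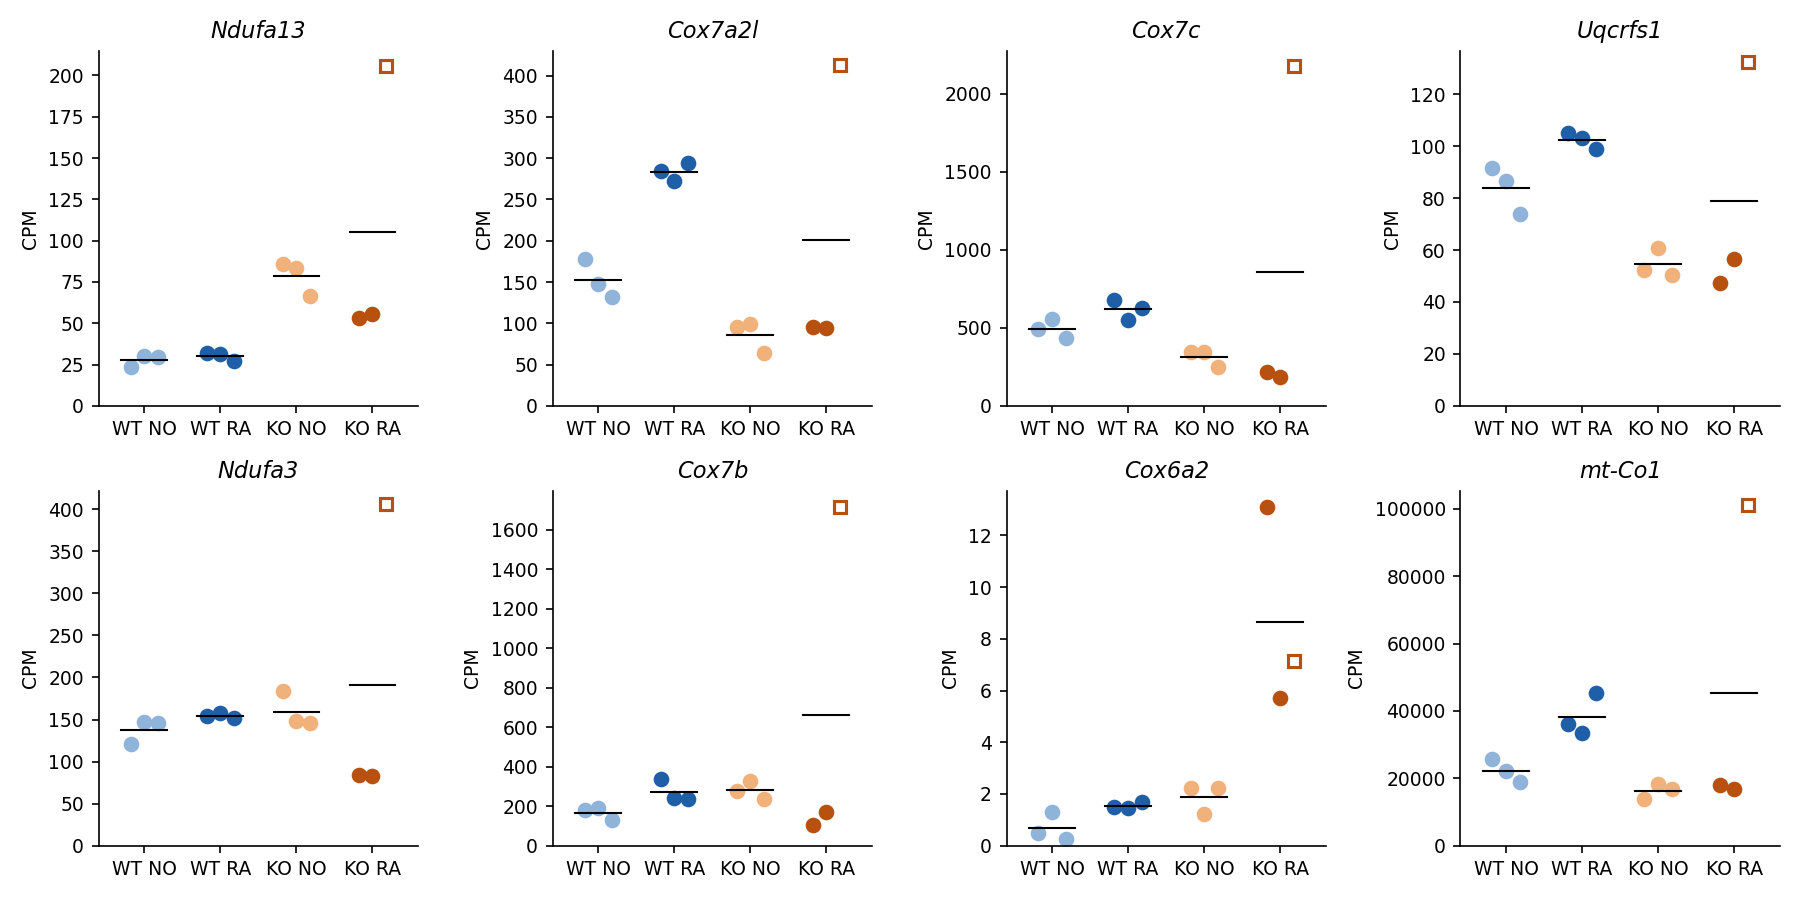
Levels in CPM of 8 genes in each of 12 libraries, with one panel per gene and an open square for the third KO RA library. Ndufa13 is higher in all KO libraries, Cox7a2l and Uqcrfs1 are lower in KO except in the open square, and Cox6a2 is highest in the 3 KO RA libraries.

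The third comparison set WT RA against WT NO. In all 12 libraries 0 of 98 were called higher and 0 lower by edgeR with RA, where 0.321% and 0.0848% of all genes were. The counts with an unadjusted p below 0.05 were 0 and 0, against 1115 and 956 of all 16502 genes. DESeq2 called 0 and 1 (3.10% and 2.50% of all genes), and limma-voom 13 and 7 (10.8% each). Without the third KO RA library 9 were called higher and 2 lower, against 5.65% and 5.13% of all genes, and 4 of the 9 were among the 13 mitochondrial genes. Medians were 0.08 over the nuclear genes and 0.52 over the mitochondrial genes, of which 11 of 13 were positive. On total counts the same medians were −0.19 and 0.25 with −0.26 for all genes, and 4 were called higher and 14 lower, against 3.05% and 14.5% of all genes. The direction of the nuclear median thus depended on the scale. The mitochondrial median lay above that of all genes on both scales. A change of scale shifts all genes of a library alike, so it could not alter that order.

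The mitochondrial genes called higher with RA were mt-Co1, mt-Atp6, mt-Nd4l and mt-Nd4. mt-Atp6, the channel subunit through which protons pass the ATP synthase, was at 14243, 10338 and 10231 CPM in WT NO and 22630, 15849 and 24443 in WT RA (0.86 ± 0.19, edgeR adjusted p = 0.0185). mt-Atp8 had a larger value, 0.98 ± 0.31, that did not pass (edgeR adjusted p = 0.07). mt-Nd2 and mt-Nd6 both had −0.02. Among nuclear genes Cox7a2l was higher in WT RA, at 285, 273 and 294 CPM against 178, 148 and 132 (0.90 ± 0.16, edgeR adjusted p = 0.0098). It changed by 0.13 with RA in KO (edgeR adjusted p = 0.675), but the difference between the 2 responses, −0.77 ± 0.25, did not pass (edgeR adjusted p = 0.132). Ndufa6 and Ndufb11 of complex I (0.69 and 0.54), Uqcrh (0.60) and Atp5g2 (0.55) were also called higher. Uqcrc1 was called lower, at 158, 159 and 169 CPM in WT NO and 123, 111 and 117 in WT RA (−0.46 ± 0.09, edgeR adjusted p = 0.0118), together with Atp5g3. Ndufa13 changed by 0.13 with RA in WT (edgeR adjusted p = 0.584).

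Atp5g2 and Atp5g3 belong to a trio, with Atp5g1, that encode the same mature protein, subunit c of the rotor of ATP synthase. A comparison of their coding sequences found the last 75 residues identical in all pairs, over bases that were 78.7% to 84.9% identical, so the encoded proteins differ in the import sequence before it. Atp5g2 gave 28.8%, 25.6% and 37.8% of their summed level in WT NO and 49.3%, 44.8% and 46.4% in WT RA, with no overlap. Atp5g3 went the other way, from 49.5%, 49.9% and 41.8% to 33.9%, 37.7% and 37.1%. Their summed level was 1422 ± 62.3 CPM (SD, n = 3) in WT NO and 1359 ± 80.8 in WT RA, and the libraries of the 2 groups overlapped. By gene, the log2 fold change was 0.55 ± 0.15 for Atp5g2 (edgeR adjusted p = 0.0374), −0.44 ± 0.12 for Atp5g3 (edgeR adjusted p = 0.0448) and −0.45 ± 0.15 for Atp5g1 (edgeR adjusted p = 0.0716), without the third KO RA library.

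In KO the same shares of Atp5g2 were 33.1%, 36.2% and 32.6% in KO NO and 41.4%, 39.04% and 55.1% in KO RA. Here the total was lower in the first 2 KO RA libraries, at 779 and 879 CPM against 1184 to 1353 in KO NO, and 1971 in the third. Atp5g1 was called lower (−1.11 ± 0.17, edgeR adjusted p = 0.00239), as was Atp5g3 (−0.66 ± 0.14, edgeR adjusted p = 0.0109), and Atp5g2 was at −0.41 (edgeR adjusted p = 0.119).

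The sequences before the 3 start sites are shown because the trio gives 1 mature protein from 3 genes on 3 chromosomes. Each line holds the 250 bases before the start in RefSeq (GRCm38.p6), on the reverse strand and written in the direction of transcription. The motif of NRF1, a transcription factor of many respiratory chain genes (GCGCANGCG on either strand), is in capitals.
Atp5g1, chr11:96075632-96075881: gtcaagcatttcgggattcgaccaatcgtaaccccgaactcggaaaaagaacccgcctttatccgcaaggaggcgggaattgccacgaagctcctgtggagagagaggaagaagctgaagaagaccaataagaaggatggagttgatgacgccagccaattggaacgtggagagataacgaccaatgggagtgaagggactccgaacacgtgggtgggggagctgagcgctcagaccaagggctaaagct
Atp5g2, chr15:102671048-102671297: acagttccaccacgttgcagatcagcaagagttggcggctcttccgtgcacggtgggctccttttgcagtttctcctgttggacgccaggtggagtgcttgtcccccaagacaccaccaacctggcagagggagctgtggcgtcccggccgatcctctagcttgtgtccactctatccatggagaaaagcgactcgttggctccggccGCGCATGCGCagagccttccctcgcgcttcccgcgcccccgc
Atp5g3, chr2:73911327-73911576: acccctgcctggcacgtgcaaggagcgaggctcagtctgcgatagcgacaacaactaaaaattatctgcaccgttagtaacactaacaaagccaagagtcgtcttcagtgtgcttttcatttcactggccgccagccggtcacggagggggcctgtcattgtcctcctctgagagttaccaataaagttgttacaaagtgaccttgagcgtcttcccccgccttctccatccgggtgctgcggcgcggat
Atp5g2 held the motif on both strands at overlapping positions and the other pair did not hold it. Of all 32851 windows of the same 250 bases in the table, 5.16% held it. Neither CCGGAAG, an ETS motif, nor AAGATGGCG, a YY1 motif, was found in the 3 windows, and they were in 6.91% and 0.606% of all windows. A match is a description of letters and not a measured binding site.

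In KO cells the comparison of KO RA with KO NO called 1 gene higher and 1 lower in all 12 libraries, against 3.89% and 1.59% of all genes. Unadjusted p-values under 0.05 were found for 24 and 6, against 2608 and 1555 of all 16502 genes. DESeq2 called 4 and 5 (9.94% and 6.01% of all genes), and limma-voom 1 and 26 (15.2% and 12.3%). Medians were 0.59 over the nuclear genes, 1.49 over the mitochondrial genes and 0.11 over all genes. Without the third KO RA library the medians were −0.45, 0.08 and −0.02, and 1 gene was called higher and 26 lower, all of them nuclear, against 8.48% and 7.54% of all genes. The nuclear genes called lower were 10 of complex I, 1 of complex II, 3 of complex III, 5 of complex IV and 7 of complex V. No mitochondrial gene was called in either direction there. On total counts the medians were −0.32, 0.21 and 0.10, with 1 called higher and 13 lower against 8.89% and 3.91% of all genes. A change of scale shifts all genes of a library alike, so it could not test the gap between the genomes.

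The gene called lower with and without the third library was Cox5a, a subunit of complex IV on its matrix side. It was at 337, 271 and 263 CPM in KO NO and 145, 149 and 189 in KO RA, with no overlap. The log2 fold change was −0.85 ± 0.21 (edgeR adjusted p = 0.0423) in all 12 libraries and −0.99 ± 0.13 (edgeR adjusted p = 0.00137) without the third. Ndufa3, a small subunit of complex I, was at 184, 148 and 146 CPM in KO NO, 83.8 and 82.5 in KO RA 1 and 2, and 406 in KO RA 3 (−0.95 without the third, edgeR adjusted p = 0.00196). Sdhb, the iron-sulfur subunit of complex II, was at 161, 141 and 141 CPM against 94.1, 98.1 and 127, again with no overlap (−0.63 without the third, edgeR adjusted p = 0.00572). Ndufv1, which binds the flavin that accepts electrons from NADH, fell by 0.64 on the log2 scale and the ATP synthase beta subunit Atp5b by 0.65 without the third library.

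The gene called higher was Cox6a2, the heart and muscle form of subunit 6a of complex IV. It was at 2.23, 1.21 and 2.23 CPM in KO NO and 13.1, 5.72 and 7.14 in KO RA, from 41 to 80 and 72 to 290 counts. The groups did not overlap, and the log2 fold change was 2.19 ± 0.54 (edgeR adjusted p = 0.041) in all 12 libraries and 2.30 ± 0.56 (edgeR adjusted p = 0.0191) without the third. In WT it was at 0.493, 1.29 and 0.244 CPM without RA and 1.49, 1.45 and 1.67 with RA (1.20, edgeR adjusted p = 0.187), and the responses did not differ by the test (interaction 1.10 ± 0.78, edgeR adjusted p = 0.487). The muscle markers Myh6, Myh7, Tnnt2, Actc1, Ckm and Myod1 summed to 0.296 to 1.09 CPM in KO NO and 3.41 to 9.61 in KO RA, with Ckm at 0 in KO NO. In WT these markers summed to 0.444 to 4.67 CPM without RA and 2.68 to 6.45 with RA, which overlapped KO RA. Their part in the level of Cox6a2 was not tested. The call of Cox6a2 in all 12 libraries was lost when most other single libraries were left out. That of Cox5a was lost when any single library other than the third KO RA library was left out.

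The other tissue forms stayed low. Cox6a1, the general form of subunit 6a, was at 409 to 874 CPM. Cox4i1 was at 248 to 491 CPM, while its hypoxia form Cox4i2 had 3 counts in 1 library and 0 in the others. Cox8a was at 549.5 to 3740 CPM, and the heart and testis forms Cox8b and Cox8c had 0 counts in all 12 libraries. The floor of 3 counts corresponds to 0.0838 to 0.297 CPM by library. Deposited counts are scaled values and not reads, so that floor is not a strict upper limit. Cox7a1, the muscle form of subunit 7a, was at 0.316 to 9.76 CPM, against 239 to 3021 for Cox7a2. The testis form Cox6b2 was at 2.68 to 10.2 CPM apart from 35.1 in the third WT NO library. Ndufa4l2, a hypoxia-induced relative of Ndufa4, was at or under 3 counts in each WT RA library and at 1.40, 1.23 and 1.19 CPM in KO RA. Set against the floor of 3 counts per library that was 8.81-fold higher, from 31, 36 and 12 counts, a fold that is not a strict bound. edgeR did not call it there with or without the third KO RA library. Untreated, it had 41, 5 and 76 counts in KO and 0, 9 and 7 in WT.

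The interaction asks whether the response to RA differed between KO and WT. In all 12 libraries 0 of 98 were called higher and 0 lower, as were 0.0% and 0.0% of all genes (unadjusted p under 0.05 in 0 and 1, against 913 and 510 of all 16502 genes). DESeq2 called 0 and 0 (1.30% and 0.576% of all genes) and limma-voom 0 and 6 (3.63% and 2.44%). Without the third KO RA library 0 were called higher and 2 lower, Ndufa3 and Cox7b, against 0.802% and 0.537% of all genes. Cox7b, a small subunit of complex IV, was at 179, 191 and 129 CPM in WT NO and 336, 242 and 237 in WT RA. In the KO line it was at 277, 330 and 234 untreated and 102, 171 and 1718 with RA. With RA it was higher in all 3 WT libraries than in any untreated one, and lower in KO RA 1 and 2 than in any KO NO library (interaction −1.76 ± 0.35, edgeR adjusted p = 0.0425). For Ndufa3 the interaction was −1.11 ± 0.18 (edgeR adjusted p = 0.0262), with 121, 147 and 146 CPM in WT NO and 154, 157 and 152 in WT RA. Medians were −0.50 over the nuclear and −0.56 over the mitochondrial genes without the third library, and 0.56 and 0.96 with it, against 0.00 and 0.12 over all genes. The genotype and RA comparisons share groups, so their values are not independent.

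**Figure D4:**
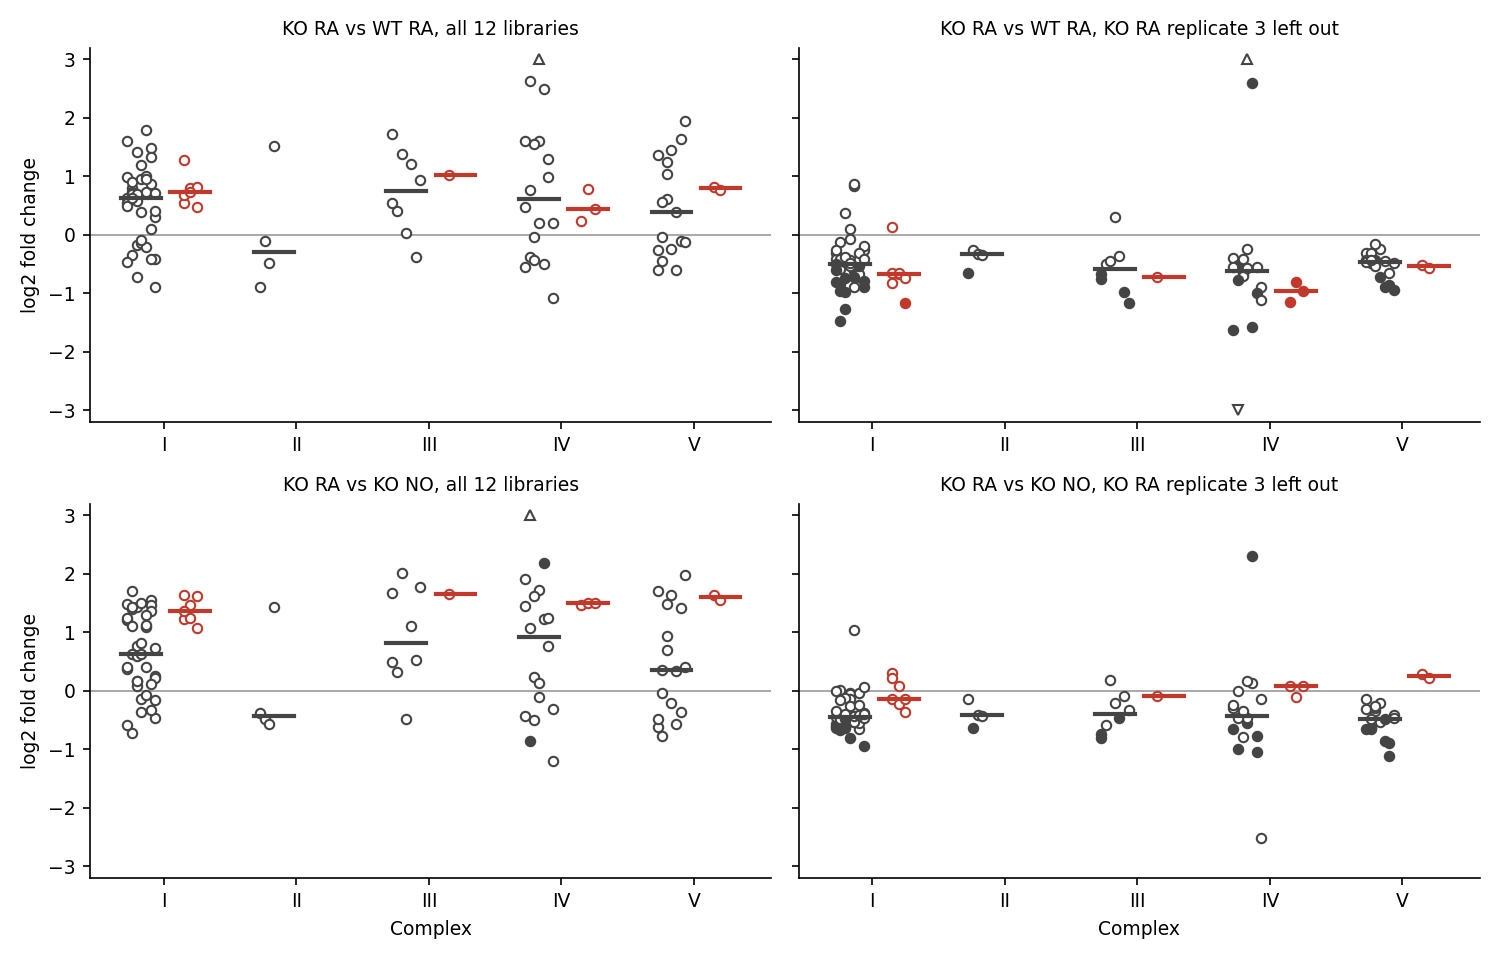
Log2 fold change of each tested gene by complex for KO RA against WT RA and KO RA against KO NO, with all 12 libraries on the left and without the third KO RA library on the right; grey points are nuclear, red points mitochondrial, filled points are called, bars are medians and triangles lie beyond 3 in size. Most points move from above 0 to below 0 between left and right, and in KO RA against KO NO without that library the nuclear median is −0.45 while the mitochondrial median is 0.08.

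Because a single library turned these medians, its departure from KO RA 1 and 2 was described gene by gene against coding length. Over the 82 nuclear genes with a coding length, Spearman's rho between length and the log2 difference was −0.462, and over 13360 protein-coding genes it was −0.456. These are correlations across genes of 1 library against the others of its group, and genes are not replicates. The median difference was 2.53 for the 22 nuclear members with up to 300 coding bases, 2.53 for the 29 with over 300 and up to 500, 1.99 for the 19 with up to 1000 and −0.19 for the 12 with over 1000. Over all genes the same classes had medians of 1.75, 1.28, 0.24 and −0.70. In the 2 shortest classes 19 of 22 and 29 of 29 members were higher in this library. In the class over 1000 bases 6 of 12 were, from −1.21 for Atp5a1 to 2.79 for Uqcrc2. In the 9 libraries of the other groups, each set against the rest of its group, rho ranged from −0.375 to 0.390 over the members and from −0.220 to 0.233 over all protein-coding genes, while the class medians of the members lay between −0.33 and 0.19. The respiratory chain set is made mostly of short genes, so a set median in this library carries that dependence, and what caused it was not tested. Leaving the library out did not make the classes alike. Median log2 fold changes of the members from the shortest to the longest class were then −0.69, −0.49, −0.41 and −0.34 in KO RA against WT RA. In KO RA against KO NO they were −0.62, −0.45, −0.35 and −0.40. The part of coding length in these values was not tested.

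**Figure D5:**
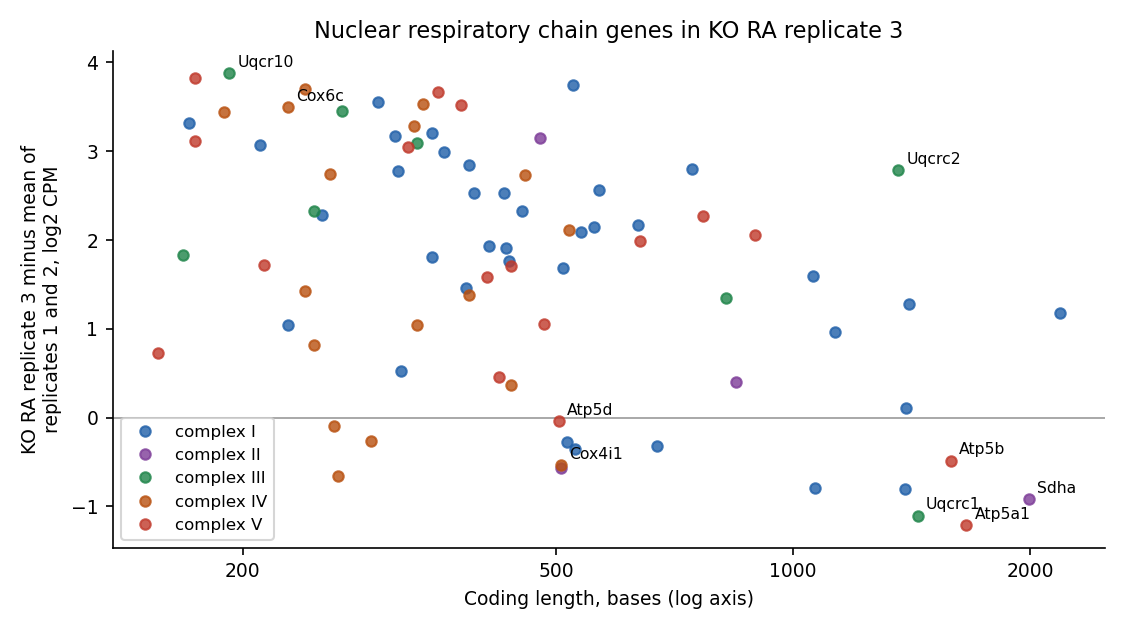
Log2 difference of the third KO RA library from the mean of the other KO RA libraries against coding length in bases (log axis) for 82 nuclear genes, coloured by complex. Genes under 500 bases lie mostly above 1, with class medians of 2.53, and the 12 genes over 1000 bases have a median of −0.19.

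Gene groups that serve the respiratory chain were described in the same fits. Their counts without the third library stand against the shares of all genes called higher and lower given above, 4.43% and 4.35% in KO NO against WT NO, 4.42% and 5.44% in KO RA against WT RA, 5.65% and 5.13% in WT RA against WT NO, and 8.48% and 7.54% in KO RA against KO NO. Of 47 assembly factors, which build the complexes but are not part of them, 0 were called higher and 8 lower in KO RA against WT RA without the third library, among them Uqcc2 (−1.21) for complex III and Ndufaf2 (−1.60) and Nubpl (−1.64) for complex I. In KO RA against KO NO 0 were called higher and 12 lower, including Atpaf2 (−0.82), an ATP synthase chaperone that was also the 1 assembly factor called with all 12 libraries (−1.02). In KO NO against WT NO 0 and 1 were called, Coa5, and in WT RA against WT NO 1 and 2.

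Of 33 genes for copying, transcribing and handling mitochondrial DNA and RNA, 1 was called higher and 2 lower in KO NO against WT NO, 1 and 2 in KO RA against WT RA, 0 and 7 in WT RA against WT NO, and 0 and 6 in KO RA against KO NO, without the third library. Grsf1, which binds mitochondrial RNA in processing granules, was called higher in KO under both treatments (0.77 and 0.72) and lower with RA in both genotypes (−0.65 and −0.70). Lrpprc, which stabilises mitochondrial mRNA, was called lower in KO NO (−0.51), as was Mtpap (−0.60), the mitochondrial polyA polymerase. Fastkd5, which processes messages not flanked by tRNAs, was called lower with RA in WT (−0.92) and KO (−0.79). With all 12 libraries Fastkd5 in KO was the only call of the list.

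Of 10 tested regulators of mitochondrial biogenesis, the orphan receptor Esrrg was called higher with RA in WT (2.15) and KO (2.51), Esrra lower in KO RA against WT RA (−0.82) and Nrf1 lower with RA in KO (−0.60). With all 12 libraries only Esrrg in KO was called (2.13). The list of electron carriers held genes for coenzyme Q and cytochrome c, and also Cyc1 of complex III and Ndufab1 of complex I. The symbols of that pair lie outside the patterns that picked the members. Of its 14 tested genes, 2 were called higher and 0 lower in KO NO against WT NO, Coq9 (1.11) and Coq6 (0.57). In KO RA against KO NO 0 were called higher and 4 lower, among them cytochrome c1, Cyc1 (−0.80). Counts were 0 and 2 in KO RA against WT RA and 1 and 1 in WT RA against WT NO. Coq9 was also the 1 gene of this list whose interaction was called (−1.06). With all 12 libraries 0 of this list were called by edgeR in any comparison, with 0 to 3 higher and 1 to 2 lower at unadjusted p-values under 0.05. Over the same comparisons 913 to 2608 of all 16502 genes were higher and 510 to 1555 lower at that p-value.

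Of 17 genes for other proteins of the mitochondrial membranes and matrix, used here for mitochondrial mass, 0 were called higher and 4 lower in KO NO against WT NO, 0 and 6 in KO RA against WT RA, 1 and 5 in WT RA against WT NO and 0 and 6 in KO RA against KO NO, without the third library. Phb2, a prohibitin of the inner membrane, was called lower in KO NO (−0.84), as were the outer membrane channels Vdac1 (−0.60) and Vdac2 (−0.39). Slc25a5, which exchanges ADP for ATP across the inner membrane, was called lower with RA in KO (−1.09). The interaction was called for Phb (−1.09) and Tomm20, both lower. With all 12 libraries edgeR called 0 of this list in any comparison, with 0 to 1 higher and 0 to 3 lower at unadjusted p-values under 0.05, where 913 to 2608 and 510 to 1555 of all 16502 genes were found.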

How the data were processed

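The authors aligned reads to GRCm39 with STAR, quantified them with Salmon through the nf-core/rnaseq pipeline, and deposited estimated counts per gene, scaled from TPM and corrected for transcript length. These were rounded to whole numbers. All 12 libraries were fitted in 1 model with edgeR 4.0.16 in R 4.3.3 (robust quasi-likelihood test, filterByExpr by group, TMM factors, Benjamini-Hochberg over all genes tested, threshold 0.05), and again without the third KO RA library. The p-values measure the spread between passages of 1 WT and 1 KO line. Scripts were tested on simulated data. The floor of 3 counts per library stands for counting error only, and it is approximate because the deposited counts are scaled values and not reads. Alternatives were DESeq2 1.42.0, its size factors, total counts, scaling on nuclear genes, no low-count filter, a minimum of 10 counts in every library, only the groups compared, limma-voom (limma 3.58.1) with quality weights, the replicate number as a block, and each library left out. The members and gene lists were chosen with earlier results of these data known. Genes named are the mitochondrial members, core subunits, tissue forms, at most 8 called members per comparison and fit, and members on chromosomes whose tested genes had a median beyond 0.2 on the log2 scale between genotypes; 1 core subunit is not reported here by name. Gene lists for assembly factors, mitochondrial DNA and RNA handling, biogenesis, electron carriers, mitochondrial mass and cell types served as context. Overlaps and promoters were read from the reference genome and RefSeq tables.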

Additional observations from a re-analysis of the deposited data

Results flagged for a closer look

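Without the third KO RA library, the response to RA differed between genotypes by edgeR's interaction term for 2 respiratory chain genes. Ndufa3, an accessory subunit of complex I, had a response that differed by −1.11 on the log2 scale, KO minus WT (SE 0.18, adjusted p = 0.0262). Cox7b, a subunit of cytochrome c oxidase, had a difference of −1.76, KO minus WT (SE 0.35, adjusted p = 0.0425). Neither gene was called when all 12 libraries were in the fit. With the replicate number as a block in the same 11 libraries neither was called (0 higher and 0 lower among the members, 27 and 14 of all 17327 genes). On total counts 1 member was called lower, as were 44 of all genes.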

How the results depend on the processing

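The third KO RA library decided most values between the KO RA group and the others. Without it the KO RA group had 2 libraries and the spread was pooled over all groups. Counts of respiratory chain genes called then changed as follows (edgeR, adjusted p under 0.05), where the full set of 12 libraries called 1 gene in each direction in KO RA vs KO NO and none elsewhere. KO NO vs WT NO gave 1 higher and 8 lower, KO RA vs WT RA gave 2 and 34, WT RA vs WT NO gave 9 and 2, KO RA vs KO NO gave 1 and 26, and the interaction gave 0 and 2. Over the 12 libraries left out in turn the counts ran from 0 to 1 higher and 0 to 8 lower in KO NO vs WT NO, from 0 to 2 and 0 to 34 in KO RA vs WT RA, from 0 to 9 and 0 to 2 in WT RA vs WT NO, from 0 to 1 and 0 to 26 in KO RA vs KO NO, and from 0 to 2 lower in the interaction. With 1 other library left out, KO RA vs WT RA called 1 member higher without the second WT NO library (116 of all 17359 genes). It called 1 higher and 1 lower without the third WT NO library (300 and 125 of 17223) and 2 higher without the second KO RA library (187 of 17226).

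The median log2 fold change of nuclear genes ran from −0.50 to 1.02 in KO RA vs WT RA, from −0.45 to 1.00 in KO RA vs KO NO and from −0.50 to 1.00 in the interaction. That of mitochondrial genes ran from −0.72 to 1.25 in KO RA vs WT RA and from −0.56 to 1.45 in the interaction. The lowest value was in each case the one without the third KO RA library. For single genes the same ranges in KO RA vs WT RA were −1.63 to 1.04 for Cox7c, −1.47 to 1.49 for Ndufs4, −1.17 to 1.51 for Uqcrh, −0.90 to 0.75 for Ndufa3, −0.96 to 1.13 for Ndufv2 and −1.14 to 0.72 for mt-Co1. In KO RA vs KO NO they were −0.95 to 0.70 for Ndufa3, −0.81 to 2.28 for Uqcr10 and −0.90 to 1.99 for Atp5l. In the interaction they were −1.11 to 0.54 for Ndufa3 and −1.76 to 1.14 for Cox7b. The log2 change of the summed level of nuclear genes without that library was −0.56 in KO RA vs WT RA and −0.47 in KO RA vs KO NO. With all 12 libraries the share of the library total gave −0.067 in KO RA vs KO NO.

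limma-voom with quality weights, on all 12 libraries, called 2 higher and 10 lower in KO NO vs WT NO, 3 and 38 in KO RA vs WT RA, 13 and 7 in WT RA vs WT NO, 1 and 26 in KO RA vs KO NO and 6 lower in the interaction. It turned the medians of nuclear genes to −0.49 in KO RA vs WT RA, −0.38 in KO RA vs KO NO and −0.43 in the interaction, and those of mitochondrial genes to −0.71 in KO RA vs WT RA and −0.47 in the interaction. Genes it turned in KO RA vs WT RA were Cox7c (−1.60), Ndufs4 (−1.40), Uqcrh (−1.14), Ndufa3 (−0.85), Ndufv2 (−0.95) and mt-Co1 (−1.12). Those in KO RA vs KO NO were Ndufa3 (−0.87), Uqcr10 (−0.68) and Atp5l (−0.76), and those in the interaction Ndufa3 (−1.08) and Cox7b (−1.56). Total counts as the scale called 1 gene higher in KO NO vs WT NO (100 of all 16502 genes) and 0 in either direction in KO RA vs KO NO (123 higher and 17 lower of all genes), with a median of nuclear genes of −0.17 there. They turned Cox7c (−0.33), Ndufa3 (−0.23), Ndufv2 (−0.028) and mt-Co1 (−0.35) in KO RA vs WT RA, Ndufa3 in KO RA vs KO NO (−0.58), and Ndufa3 (−0.49) and Cox7b (−0.39) in the interaction. DESeq2 called 2 lower in KO NO vs WT NO, 3 higher and 3 lower in KO RA vs WT RA, 1 lower in WT RA vs WT NO, and 4 higher and 5 lower in KO RA vs KO NO. DESeq2 size factors in edgeR called 1 higher in KO RA vs WT RA (173 of all 16502 genes) and 0 lower in KO RA vs KO NO (343 of all genes). With only the groups compared in the fit, 1 higher and 1 lower were called in KO NO vs WT NO (406 and 312 of all 15254 genes), 1 higher in WT RA vs WT NO (316 of 14705) and 0 in either direction in KO RA vs KO NO (178 and 18 of 15307). Both other low-count filters called 0 in either direction in KO RA vs KO NO. There 444 and 139 of all 28864 genes were called without a filter, and 475 and 186 of 11576 with at least 10 counts in every library. The cause of these changes was not tested.

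Whether libraries with the same replicate number share a passage is not stated in the paper. For such libraries 18 correlations of their deviations from the group means ran from −0.215 to 0.0853. With 3 libraries in a group these cannot show whether a passage was shared. With the replicate block 0 members were called in either direction in KO RA vs KO NO (343 higher and 124 lower of all 16502 genes). With it mt-Co1 in KO RA vs WT RA (−0.030) and Ndufa3 in the interaction (−0.17) turned. Chosen after seeing the data, 4 settings were repeated without the third KO RA library. The block then called 1 higher and 3 lower in KO NO vs WT NO, 1 and 27 in KO RA vs WT RA, 4 and 1 in WT RA vs WT NO, 0 and 27 in KO RA vs KO NO, and 0 and 0 in the interaction, where the Ndufa3 and Cox7b calls were lost. Of all 17327 genes the block called 475 and 421, 441 and 601, 593 and 491, 1082 and 942, and 27 and 14. Total counts called 4 and 6, 7 and 9, 4 and 14, and 1 and 13 in the same order, and 1 lower in the interaction. Of all 17327 genes 803 and 490, 3858 and 311, 529 and 2504, 1541 and 677, and 674 and 44 were called on total counts. Nuclear scaling called 1 and 8, 2 and 32, 9 and 1, and 1 and 21, and 2 lower in the interaction. Its counts over all 17327 genes were 750 and 746, 805 and 897, 993 and 797, 1524 and 1145, and 131 and 73. DESeq2 called 4 and 12, 4 and 57, 18 and 6, and 1 and 41, and 32 lower in the interaction. Its counts over all 17327 genes were 1269 and 1322, 1208 and 1561, 1529 and 1434, 1846 and 1875, and 609 and 725. Among single genes named in the text, 622 of the alternatives kept direction and side of the threshold, 31 turned the direction, 29 lost a call and 50 gained one. The Cox5a call was lost in 17 alternatives and the Cox6a2 call in 12.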

Other observations

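Of the marker lists not described above, all had lower sums than the neural progenitor markers. Over the 12 libraries the summed levels were 71.7 to 207 CPM for neuron markers, 8.78 to 18.6 CPM for astroglia markers, 0.563 to 12.6 CPM for endothelial markers and 0.0 to 3.07 CPM for germline markers.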
